A study of Mus musculus with 99 samples.

Results

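The 10 genes described here are immediate early transcription factor genes of the AP-1, EGR and ATF3 group: Fos, Fosb, Fosl2, Jun, Junb, Jund, Egr1, Egr2, Egr3 and Atf3. They were taken by name, as 10 of the 55291 gene symbols in the count table, and all 10 had a row. Full-length cDNA was sequenced from single hair cells of the mouse cochlea, each picked manually by its fluorescence. The P30 WT OHC group held 32 outer hair cells from Slc26a5-CreER/+; Ai9/+ mice at postnatal day 30. The P42 cIHC group held 67 cells from Slc26a5-CreER/+; Rosa26Tbx2/+ mice at postnatal day 42. These cIHCs are outer hair cells that express ectopic Tbx2, a T-box transcription factor, and that the study describes as converting into inner hair cells. Both groups were on the C57BL/6 strain, carried the Slc26a5-CreER driver of prestin-expressing outer hair cells, expressed tdTomato and went through the same enzyme digestion and trituration. Further outer hair cells that the series' text takes from an earlier study are not analysed here.

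All 99 libraries are single cells whose animals are not named, and a group therefore counts as 1 sample. The groups also differ in age and in genotype at once, and these cannot be told apart. Differences below therefore have no replicate check and no p-value, and every interval covers counting error only. The reads carry no molecular identifiers, so they are not independent molecules.

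Immediate early genes are transcribed within minutes of a stimulus such as a growth factor, depolarisation or injury, without the need for new protein synthesis. FOS and JUN proteins pair to form AP-1, which binds DNA as a dimer. EGR proteins are zinc finger factors induced by the same kinases, and ATF3 is a stress-induced member of the ATF/CREB family. In tissues, the genes also respond to cell dissociation itself, and ATF3 with JUN is widely used as a mark of axon injury.

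The promoters of 4 genes with very different levels in the 2 groups (Fos, Fosb, Junb and Atf3) and of Jun, which was high in both, are shown because this family is known for control through short promoter elements. Windows are the 250 bases before the RefSeq start site on GRCm38.p6, 5′ to 3′ on the gene's strand. Capitals mark TGACG, the half-site of the cyclic AMP response element (CRE) searched on both strands, and TATAAA, the TATA box searched on the gene's strand. Positions are counted backwards from the start site.
Fos lies on the plus strand and its window is chr12:85473640-85473889.
Fos: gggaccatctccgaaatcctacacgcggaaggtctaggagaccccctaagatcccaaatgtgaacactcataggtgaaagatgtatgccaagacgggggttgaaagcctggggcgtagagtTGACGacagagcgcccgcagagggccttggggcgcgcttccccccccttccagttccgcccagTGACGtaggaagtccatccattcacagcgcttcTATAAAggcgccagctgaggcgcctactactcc
Fosb lies on the minus strand and its window is chr7:19310046-19310295.
Fosb: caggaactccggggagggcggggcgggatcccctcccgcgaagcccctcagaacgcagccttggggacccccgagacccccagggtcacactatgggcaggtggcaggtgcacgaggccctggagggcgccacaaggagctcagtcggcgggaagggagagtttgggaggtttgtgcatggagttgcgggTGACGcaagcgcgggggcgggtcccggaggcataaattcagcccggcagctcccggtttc
Junb lies on the minus strand and its window is chr8:84978749-84978998.
Junb: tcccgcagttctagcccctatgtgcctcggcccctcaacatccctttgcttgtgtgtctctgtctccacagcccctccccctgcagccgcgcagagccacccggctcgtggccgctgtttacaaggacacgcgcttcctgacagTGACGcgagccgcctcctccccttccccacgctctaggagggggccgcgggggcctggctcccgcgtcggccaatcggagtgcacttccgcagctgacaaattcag
Atf3 lies on the minus strand and its window is chr1:191183334-191183583.
Atf3: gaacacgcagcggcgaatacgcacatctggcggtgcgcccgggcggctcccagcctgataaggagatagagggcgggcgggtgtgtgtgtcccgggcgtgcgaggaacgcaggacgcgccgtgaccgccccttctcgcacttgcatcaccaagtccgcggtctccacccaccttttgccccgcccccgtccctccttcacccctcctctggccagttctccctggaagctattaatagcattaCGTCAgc
Jun lies on the minus strand and its window is chr4:95052223-95052472.
Jun: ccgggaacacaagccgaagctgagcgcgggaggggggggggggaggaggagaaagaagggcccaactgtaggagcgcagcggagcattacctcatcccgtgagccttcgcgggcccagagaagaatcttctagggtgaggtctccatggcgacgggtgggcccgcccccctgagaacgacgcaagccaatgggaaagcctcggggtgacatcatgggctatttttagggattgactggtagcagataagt

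Fos held TGACG at -129 to -125 and at -66 to -62, and the TATA box at -33 to -28. Fosb held TGACG at -60 to -56 and Junb held it at -106 to -102. Atf3 held TGACG on the opposite strand at -7 to -3. The Jun window held none of these letters, and the same letters occur in 17.8% (TGACG) and 7.59% (TATAAA) of the 32841 RefSeq promoter windows of this length. The full CRE (TGACGTCA, in 1.55% of windows), the AP-1 site (TGACTCA, 4.46%), the EGR site (GCGTGGGCG, 0.536%) and the CArG box bound by serum response factor (1.47%) were searched on both strands and were not in these 5 windows. TGACG is part of TGACGTCA, so a full CRE would be counted under both. RefSeq windows were found for 8 of the 10 genes. Windows for Egr1 and Egr3 were not matched. A match describes letters and not a bound site.

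Total counts ranged from 5656512 to 9287413 per OHC and from 4677682 to 13792672 per cIHC. A median of 6068.5 genes had reads per OHC against 8546 per cIHC and 5905 against 8318.5 after thinning to 5770000 reads a cell. Mitochondrial genes took a median 6.68% of counts in OHCs and 3.47% in cIHCs. Tbx2 was at 0.0124 CPM (a gene's reads scaled to a common total of counted reads) in the summed OHCs and at 730.7 CPM in the summed cIHCs, with reads in all 67 cIHCs. The 4 OHC markers (Slc26a5, Ocm, Ikzf2, Lbh) came to 48712 CPM over OHCs and 259.3 CPM over cIHCs, while the 4 IHC markers (Slc17a8, Otof, Shtn1, Slc7a14) summed to 612.0 and 4489 CPM. Slc26a5, which encodes prestin, was at 2080 CPM in OHCs and 0.303 CPM in cIHCs. Sex-linked reads divided the cells: 55 cIHCs had Xist at 10 CPM or more and 12 had Y-linked genes at that level, against 4 and 24 OHCs, with 4 OHCs under it for both.

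Of the 10 genes, 7 were at or above 10 CPM in the sum of 1 or both groups. Atf3, Egr1, Junb and Fos were higher in cIHCs, Fosb was lower, and Jun and Jund were abundant in both groups. Fosl2, Egr2 and Egr3 stayed under 1 CPM in both. Between cells, Fos and Junb ranged widely from 0 upwards in both groups. Egr1 did so in cIHCs, while 1 OHC held nearly all OHC reads of Egr1. For none of the 10 genes did the ranges of the groups separate.

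**Figure D1:**
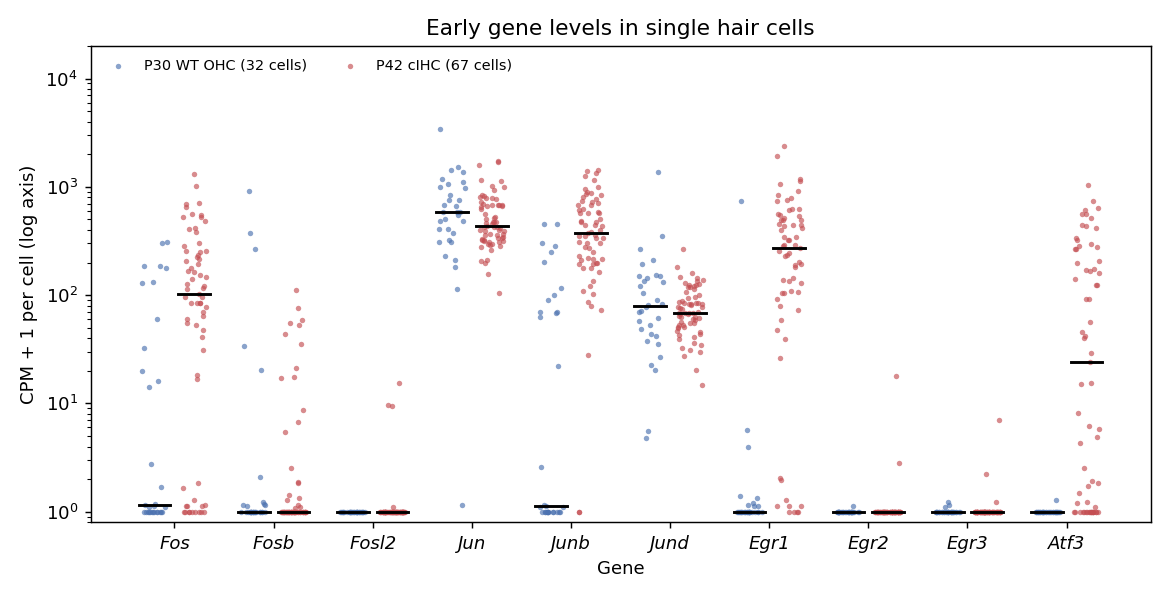
Level of each gene in each cell, as CPM + 1 on a log axis, for the 32 P30 WT OHCs (blue) and 67 P42 cIHCs (red). Bars are medians over cells; Fos and Junb sit near 0 in the median OHC and at 101.9 and 376.3 CPM in the median cIHC, while Jun and Jund are high in nearly every cell of both groups.

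Among the FOS genes, Fos itself encodes the classic inducible AP-1 partner of JUN proteins and lies at chr12:85473890-85477273 (GRCm38, plus strand, GENCODE M21). Fos ranged from 0 to 308.9 CPM in OHCs with a median of 0.146 CPM, and from 0 to 1318 CPM in cIHCs with a median of 101.9 CPM. The ranges overlapped: 13 of the 67 cIHCs lay above every OHC, and no OHC lay below every cIHC. Reads of Fos were found in 19 of 32 OHCs (59.4%, exact 95% interval 40.6 to 76.3%) and in 58 of 67 cIHCs (86.6%, 76.0 to 93.7%). At 10 CPM or more, the counts were 12 OHCs and 51 cIHCs. Fos was thus under 10 CPM in most OHCs and at or above it in most cIHCs, and both groups held cells without reads of it. Summed over cells, Fos stood at 43.4 CPM (OHC) and 208.8 CPM (cIHC), giving a log2 ratio of 2.27 (2.24 to 2.29) or 4.81-fold. Taken cell by cell, the cIHC was the higher in 71.5% of the 2144 pairs of 1 OHC and 1 cIHC, and 5.46% of pairs were tied.

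Fosb, a close relative of Fos that also pairs with JUN proteins, showed the opposite sum. Its level was 47.1 CPM over OHCs but 7.15 CPM over cIHCs, a log2 ratio of -2.72 (-2.77 to -2.67). That sum came from few cells. The median was 0 CPM in both groups, the highest OHC (OHC 32) reached 914.3 CPM and held 56.5% of all OHC reads of the gene, and the highest cIHC reached 109.6 CPM. Reads were found in 11 of 32 OHCs (34.4%) and 22 of 67 cIHCs (32.8%), and 5 OHCs and 10 cIHCs reached 10 CPM. With each group's highest cell left out the log2 ratio was -1.82. The shares of cells with reads were thus close, while the highest cells lay far apart. Fosl2, which encodes FRA2, a FOS protein lacking the C-terminal activation domain, had no reads in any OHC, which allows a share of cells with reads of up to 9.38% by a limit of 3 of 32 cells and 10.9% by the exact 95% interval. In cIHCs it had 232 reads in 4 cells, 0.426 CPM. That was 5.10 higher on the log2 scale against a floor of 3 counts over the OHC group. The lower limit of the exact 95% interval was 4.795.

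Among the JUN genes, Jun and Jund had reads in every cell of both groups. Jun is a single-exon gene at chr4:95049034-95052222 (minus strand) whose product can form AP-1 alone or with FOS proteins. Jun ranged from 0.156 to 3438 CPM in OHCs with a median of 580.0 CPM, and from 103.2 to 1734 CPM in cIHCs with a median of 433.0 CPM. Every cell had reads, and 31 of 32 OHCs and 67 of 67 cIHCs reached 10 CPM. The sum of Jun was 711.8 CPM (OHC) and 561.2 CPM (cIHC), for a log2 ratio of -0.34 (-0.35 to -0.33), and the cIHC was the higher in 41.7% of pairs of cells. The difference was small beside the spread between cells, which spanned more than an order of magnitude in each group.

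Jund encodes the JUN protein that most tissues make without a stimulus. It also had reads in every cell, ranging from 3.76 to 1374 CPM in OHCs (median 78.7 CPM) and from 13.7 to 264.9 CPM in cIHCs (median 68.1 CPM). Its sum was 129.9 CPM over OHCs and 79.1 CPM over cIHCs, a log2 ratio of -0.72 (-0.74 to -0.70). OHC 32 held 30.8% of the OHC reads of Jund, and the log2 ratio was -0.28 with each group's highest cell left out. The same cell was the highest of all OHCs for Jun (3438 CPM) and Fosb, and with 4769 it had the fewest genes with reads. The coefficient of variation over cells (SD over mean) was 1.74 for Jund in OHCs and 0.541 in cIHCs.

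Junb encodes a JUN protein that activates more weakly than JUN and is itself strongly inducible. In the direction of its group ratio Junb went with Fos rather than with Jun and Jund. Junb ranged from 0 to 456.1 CPM in OHCs with a median of 0.138 CPM, and from 0 to 1425 CPM in cIHCs with a median of 376.3 CPM. In cIHCs 65 of 67 cells reached 10 CPM (97.0%, 89.6 to 99.6%), against 14 of 32 OHCs (43.8%, 26.4 to 62.3%). The ranges overlapped, but 28 cIHCs lay above every OHC and the cIHC was the higher in 88.9% of pairs of cells. The sums were 80.1 CPM (OHC) and 483.5 CPM (cIHC), a log2 ratio of 2.59 (2.57 to 2.61) or 6.03-fold. At its 3′ end 173 exon bases of Junb, 7.52% of its exons, overlap Prdx2 on the opposite strand. Prdx2 was at 353.8 CPM in OHCs and 610.7 CPM in cIHCs, and whether the counting used strand is not given in the sources used here. An antisense gene, Gm11175, covers 52.6% of the exon bases of Jund but was listed at 0 in both groups, and Junos covers 7.28% of those of Jun at 3.37 and 2.43 CPM.

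Among the EGR genes only Egr1 was abundant. It encodes a zinc finger factor that is a standard readout of ERK signalling and recent neuronal activity. In OHCs Egr1 had a median of 0 CPM, and 1 cell (OHC 22) at 736.6 CPM held 98.4% of all OHC reads of the gene. The next highest OHC was under 10 CPM. In cIHCs Egr1 ranged from 0 to 2406 CPM with a median of 272.4 CPM, and 57 of 67 cells reached 10 CPM (85.1%, 74.3 to 92.6%). The sums were 19.4 and 375.9 CPM, a log2 ratio of 4.28 (4.24 to 4.32) or 19.4-fold. Leaving out each group's highest cell gave a log2 ratio of 10.1, so the OHC level of Egr1 is in effect the level of OHC 22. That cell also had the highest Fos of all OHCs, 308.9 CPM, with Junb at 0 CPM. Its mitochondrial share of 9.72% was above the group's median of 6.68%.

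Egr2 and Egr3, the relatives of Egr1 best known in myelinating Schwann cells and in muscle spindles and neurons, were near the limit of detection. Egr2 had 1 read over all OHCs and 156 reads in 2 cIHCs, of which cIHC 31 held 90.4%, a log2 ratio of 6.12 with a counting interval of 3.62 to 11.4. Egr3 had 4 reads in 3 OHCs and 59 reads in 3 cIHCs, of which cIHC 33 held 78.0%, a log2 ratio of 2.71 (1.28 to 4.64). These ratios describe single cells more than groups.

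Atf3 had the highest log2 ratio of the 10 and the most cIHCs above every OHC. Its product is a bZIP factor, induced by stress and injury, that pairs with itself and with JUN proteins. Over all 32 OHCs Atf3 had 2 reads, both in OHC 27 (0.274 CPM), and no OHC reached 10 CPM, although Jun was high in the same cells. In cIHCs it had 72497 reads, 133.3 CPM in the sum, and ranged from 0 to 1048 CPM with a median of 23.4 CPM. The cIHCs were themselves divided: 49 of 67 had reads (73.1%, 60.9 to 83.2%) and the others were at 0. Of the 49, 36 reached 10 CPM and the others had reads below that level. The log2 ratio was 13.98 with a counting interval of 12.1 to 17.0, and 46 cIHCs lay above every OHC. The cIHC was the higher in 73.0% of pairs of cells and 26.03% were tied, against 90.2% higher for Egr1 and 88.9% for Junb.

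**Figure D2:**
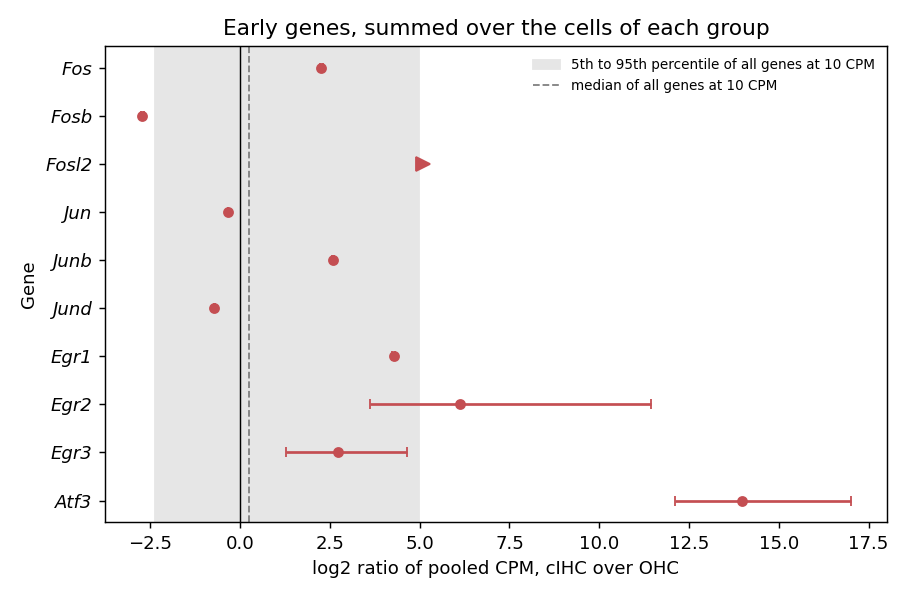
Log2 ratio of summed CPM, cIHC over OHC, for the 10 genes, with 95% counting intervals. The triangle for Fosl2, which had no OHC reads, is its ratio against a floor of 3 counts. The grey band spans the 5th to 95th percentile of the 10041 genes at 10 CPM (-2.37 to 4.98) and the dashed line is their median, 0.25; Atf3 lies far to the right of the band and Fosb just to its left.

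Read against all genes, 10041 genes reached 10 CPM in 1 or both groups, with a median log2 ratio of 0.25. Of the 10 early genes, 7 were at least 1 log2 unit higher in cIHCs, where 26.3% of those 10041 genes were, and 1 (Fosb) was at least 1 lower, where 14.3% were. Of the 7 early genes that themselves reached 10 CPM, 4 were at least 1 higher and 1 was at least 1 lower. The median of the 10 was 2.65 with floors of 3 counts, and that of the 7 was 2.27. Relative to the median gene, Fos stood at 2.02, Junb at 2.34, Egr1 at 4.03, Jun at -0.59, Jund at -0.97 and Fosb at -2.97. Of all genes at 10 CPM, 99.8% had a lower ratio than Atf3, and 4.10% a lower one than Fosb. Scaling by TMM or by medians of ratios shifted every log2 ratio by -0.19 and -0.20.

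Per kilobase of exon, which allows levels of different genes to be set side by side, the order in OHCs was Jun (223.2 CPM per kb), Jund (77.9), Junb (34.8), Fos (18.5), Fosb (7.54) and Egr1 (4.32). In cIHCs it was Junb (210.1 CPM per kb), Jun (176.0), Fos (88.8), Egr1 (83.8), Atf3 (61.9), Jund (47.4) and Fosb (1.14). Fosl2, Egr2 and Egr3 were under 1 CPM per kb in both groups, as was Atf3 in OHCs. The ranges over cells of neighbours in each order overlapped, so the order holds for the sums only. Junb stood below Jun and Jund in OHCs and above both in cIHCs, while Jund stood above Fos and Egr1 in OHCs and below both in cIHCs. In the 12 cIHCs with Y-linked reads the order differed: Atf3 (226.4 CPM per kb), Jun (184.2), Junb (155.6), Egr1 (144.4), Jund (52.1) and Fos (42.6).

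The spread between cells was compared with that of other genes of like level. Fos in cIHCs had a coefficient of variation of 1.30, against a median of 0.589 over the 413 genes whose summed level lay within 0.25 log2 units of it. Egr1 in cIHCs had 1.14 against 0.465 and Atf3 had 1.501 against 0.705. Junb at 0.744 against 0.442 and Jun at 0.612 against 0.451 were closer to other genes of their level, and Jund at 0.541 lay below the 0.904 of its own. Fosb at 2.70 against 2.69 was level with its own. In cIHCs Fos, Egr1 and Atf3 were thus uneven for their level, and Fosb and Jund were not. In OHCs Fos had 1.84 against 1.72 and Junb 1.66 against 1.31. Wider gaps there belonged to Egr1 (5.59 against 2.49), Fosb (3.52 against 1.66), Jund (1.74 against 1.02) and Jun (0.863 against 0.486), for each of which 1 cell stood far above the rest. Genes at the level of Fos had reads in a median of 100% of cIHCs and 50% of OHCs, and Fos had them in 86.6% and 59.4%.

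Shares of cells with reads were also taken at equal depth. After thinning to 5770000 reads, which left 29 OHCs and 66 cIHCs, Fos was found in 14 OHCs (48.3%, from 59.4% unthinned) and 57 cIHCs (86.4%, from 86.6%), and Junb in 17 (58.6%, from 59.4%) and 64 (97.0%, from 97.0%). Egr1 was found in 8 thinned OHCs (27.6%, from 28.1%) and 62 thinned cIHCs (93.9%, from 94.0%), and Atf3 in 1 (3.45%, from 3.12%) and 48 (72.7%, from 73.1%).

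Counting the genes per cell, OHCs had a median of 3 of the 10 at 10 CPM or more, with a range of 1 to 5, and cIHCs had a median of 5, with a range of 3 to 8. Most often an OHC had 2 (10 cells) or 3 (13 cells), and a cIHC 5 (28 cells) or 6 (21 cells). The cell with 8 was cIHC 31, which lacked only Fosl2 and Egr3. It had Fos at 550.0 CPM, Egr1 at 1178 CPM, Jun at 1161 CPM and Junb at 578.5 CPM, and it also held most Egr2 reads. The mean of log2(CPM + 1) over the 10 genes ran from 0.603 to 4.38 in OHCs (median 2.27) and from 1.92 to 5.91 in cIHCs (median 4.21).

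Co-expression over cells was measured by Spearman's rho of CPM for each pair of early genes with reads in at least 25% of a group's cells. The cells share library chemistry and, in unknown numbers, animals, so each rho is a description. In the 67 cIHCs, 7 of the genes gave 21 pairs with a median rho of 0.18, and 19 pairs were above 0. All pairs of the 8979 genes with a mean of 10 CPM and reads in 25% of cIHCs had a median of 0.0085 and a 95th percentile of 0.22. The share of all gene pairs above 0 was not counted in either group. Of the early gene pairs 4 had a rho of at least 0.4, where 0.166% of all gene pairs did. These were Fos with Egr1 (0.47), Junb with Egr1 (0.45), Fos with Junb (0.44) and Jun with Egr1 (0.40). Egr1 was in 3 of the 4 and had a positive rho with each of the other 6 genes.

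**Figure D3:**
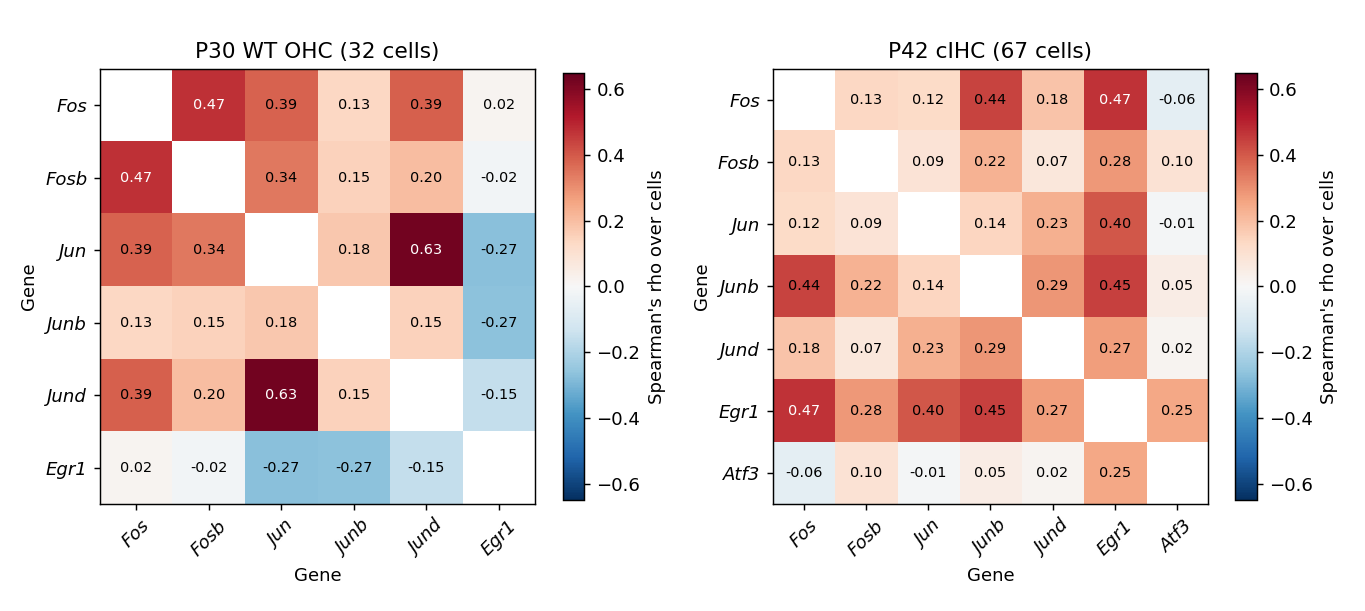
Spearman's rho over cells for each pair of early genes with reads in at least 25% of cells, in 32 OHCs (left, 6 genes) and 67 cIHCs (right, 7 genes), on one colour scale. In cIHCs the darkest cells join Fos, Junb and Egr1 (0.44 to 0.47) and the Atf3 row stays between -0.06 and 0.25; in OHCs the darkest cell joins Jun and Jund (0.63).

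For Fos with Egr1, the cells behind these values show an on and off pattern as much as a graded one. For Fos with Junb the pattern was graded in Junb more than on and off. At 10 CPM or more, 48 of 67 cIHCs had both Fos and Egr1, 3 had Fos alone, 9 had Egr1 alone and 7 had neither. Fos and Junb were together in 50 cIHCs, with 1 cell Fos alone, 15 Junb alone and 1 neither, so Junb was present in all but 1 of the cells with Fos and all but 1 of those without. The rho values were similar after regressing ranks on the number of genes with reads: 0.46 for Fos with Egr1, 0.44 for Junb with Egr1 and 0.39 for Fos with Junb. Within the 55 cIHCs with Xist reads they were 0.47, 0.48 and 0.44. Jun with Egr1 was 0.41 after that regression but 0.34 in the cells with Xist reads. Within the 55 cells with Xist reads, levels also ran with cell number. Junb reached at most 248.85 CPM in cIHCs 13 to 22, against up to 1425 CPM in those numbered 23 to 67. Fos and Egr1 were at or near 0 in many of cIHCs 13 to 22. The part of this in the rho values was not tested.

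Atf3 did not follow Fos. Its rho was -0.06 with Fos, 0.05 with Junb, -0.01 with Jun and 0.25 with Egr1 in the 67 cIHCs. At 10 CPM or more, 26 cIHCs had Atf3 and Fos, 10 had Atf3 alone, 25 had Fos alone and 6 had neither. Of the 36 cIHCs with Atf3 at that level, 33 also had Egr1, 35 also had Junb and 36 also had Jun and Jund. Over all 67 cIHCs these genes reached 10 CPM in 57, 65, 67 and 67 cells, so most or all cells of any subset would have them. Within the 55 cells with Xist reads the rho of Atf3 was -0.01 with Fos, 0.20 with Junb, -0.09 with Jun and 0.21 with Egr1.

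In the 32 OHCs, 6 genes gave 15 pairs with a median rho of 0.15, a range of -0.27 to 0.63, and 11 pairs above 0. All pairs of the 7349 genes with a mean of 10 CPM and reads in 25% of OHCs had a median of 0.0067 and a 95th percentile of 0.31. Without the cell with the highest mean of the early genes the median of the 15 pairs was 0.076, and with Pearson's r it was 0.26 (0.14 in cIHCs). There, 2 pairs had a rho of at least 0.4, where 1.44% of all gene pairs did: Jun with Jund (0.63) and Fos with Fosb (0.47). Jun with Jund was 0.57 after regressing on genes with reads and 0.61 in the 24 OHCs with Y-linked reads, against 0.23 in the cIHCs. Fos with Fosb was 0.38 after that regression and 0.41 in the 24 OHCs. Fos with Junb, among the highest in cIHCs, was 0.13 in OHCs, where 6 cells had both at 10 CPM, 6 Fos alone, 8 Junb alone and 12 neither. Whether the groups differ in these correlations was not tested. Fos and Jund in OHCs each also ran against total counts (rho -0.51 and -0.47).

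**Figure D4:**
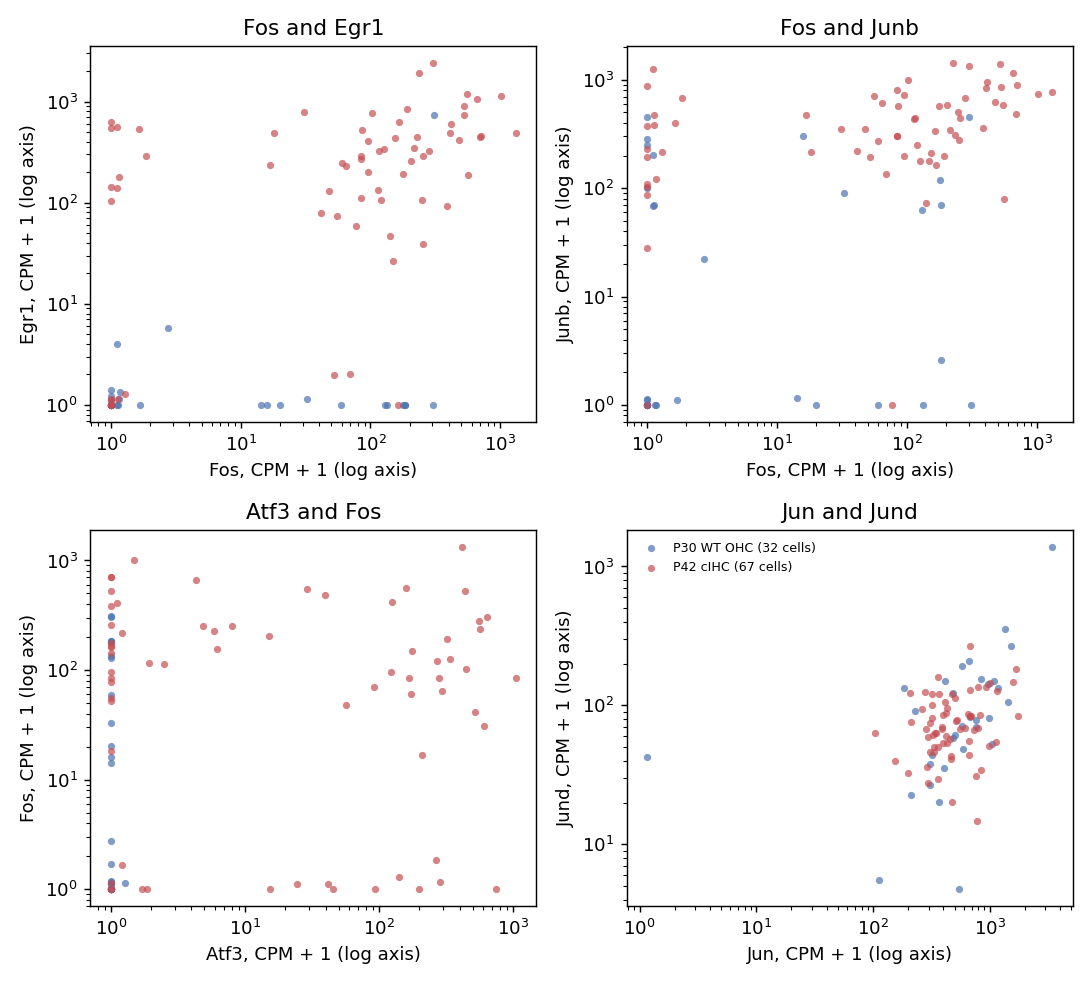
Levels of 4 pairs of genes in each cell, as CPM + 1 on log axes, for 32 OHCs (blue) and 67 cIHCs (red). Fos and Egr1 are both at 10 CPM or more in 48 cIHCs and in 1 OHC; Atf3 is at 10 CPM or more in 26 cIHCs with Fos at that level and in 10 without; Jun and Jund are high together in OHCs, with OHC 32 at the top right.

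Of the 7 genes at 10 CPM, Atf3 differed most between the cIHCs with Y-linked reads and those with Xist reads. In the 12 cIHCs with Y-linked reads Atf3 ranged from 171.2 to 1048 CPM with a median of 426.5 CPM, and all 12 reached 10 CPM. In the 55 with Xist reads it ranged from 0 to 555.5 CPM with a median of 3.85 CPM, and 24 reached 10 CPM (43.6%). The ranges overlapped at the top, while 46 of the 55 lay below every cell with Y-linked reads. Summed, the levels were 487.8 and 71.6 CPM, a log2 ratio of 2.77 (2.75 to 2.79). Of the 9722 genes at 10 CPM in either set of cells, 7.82% were at least 1 log2 unit higher in the cells with Y-linked reads, and 0.689% were as far up as Atf3. In all, 10 genes were at 10 CPM in every cell with Y-linked reads and in at most 50% of those with Xist reads, 2 of them Y-linked, and Atf3 and the phosphatase gene Dusp8 were among them.

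The other early genes were lower, level or less far up. Fos was lower in the cells with Y-linked reads (100.2 against 227.7 CPM, log2 ratio -1.18), Junb was lower (357.9 against 505.3 CPM, -0.50), and Egr1 was higher in the sum (647.5 against 328.6 CPM, 0.98) with nearly equal medians of 287.8 and 255.2 CPM. Jun (0.08) and Jund (0.16) were nearly level. Fosb was at 17.1 against 5.41 CPM (1.66), with a median of 0 CPM in both sets of cells. The 12 cells with Y-linked reads are those numbered 1 to 12 in the labels and the 55 with Xist reads those numbered 13 to 67. Sex, animal, litter and day of picking therefore cannot be told apart here, and no label names any of them.

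**Figure D5:**
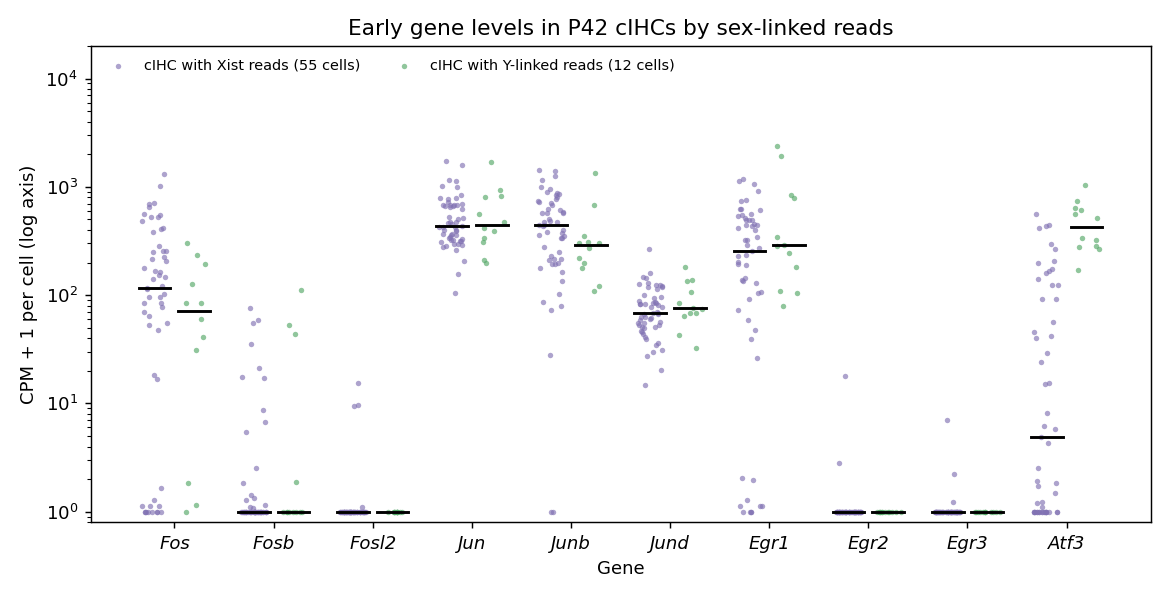
Level of each gene in the 55 cIHCs with Xist reads (purple) and the 12 with Y-linked reads (green), as CPM + 1 on a log axis, with bars at the medians. Atf3 is at 171.2 CPM or more in all 12 green cells and has a median of 3.85 CPM in the purple ones, while Jun and Jund have nearly the same medians in both.

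Because OHCs were mostly cells with Y-linked reads and cIHCs mostly cells with Xist reads, the group ratios were also taken within each. Among cells with Y-linked reads (24 OHCs, 12 cIHCs), Atf3 was at 0 against 487.8 CPM, Egr1 at 0.389 against 647.5 CPM (log2 ratio 10.7) and Junb at 65.2 against 357.9 CPM (2.46). Fos was at 45.2 against 100.2 CPM (1.15), and Fosb at 27.2 against 17.1 CPM (-0.66). Among cells with Xist reads (4 OHCs, 55 cIHCs), Junb had a log2 ratio of 2.46 and Fos of 1.68. Egr1 had 1.04 there, since OHC 22 is 1 of those 4 cells. Jund turned from lower to higher (0.11), and so did Fosb (6.29), which had 2 reads in those 4 OHCs. Junb was thus the most alike across these sets, and the directions of Fosb and Jund depended on the set.

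Other measures moved with the early genes from cell to cell. Over the 67 cIHCs the mean of the 10 genes had a rho of 0.40 with Tbx2, and 0.35 after regressing on genes with reads. Among single genes, Junb had the highest rho with Tbx2 (0.52), followed by Egr1 (0.35) and Fos (0.30). Junb also had a rho of -0.65 with the mitochondrial share and -0.41 with Ocm, the OHC calcium buffer oncomodulin. Fos had -0.40 with the mitochondrial share and Atf3 had -0.38 with total counts. These measures also ran with cell number. The mitochondrial share was 4.25% or more in cIHCs 1 to 22 except cIHC 11 (0.287%), and lower in most numbered 23 to 67. Total counts were at most 7939437 in cIHCs 1 to 12, where Atf3 was high, against up to 13792672 in the others. In OHCs the mean of the 10 genes had a rho of -0.26 with the number of genes with reads, and in cIHCs 0.25. The part of these measures in the differences above was not tested.

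Macrophages and other resident cells also express early genes, so their markers were read beside them. The 12 macrophage and blood markers summed to 10.6 CPM in OHCs (0 to 127.2 CPM per cell, 9 of 12 with reads) and 54.9 CPM in cIHCs (0 to 336.9 CPM per cell, 7 of 12 with reads). In cIHCs C1qb made up 48.2 CPM of that sum, while C1qa, C1qc, Tyrobp, Cx3cr1 and Lyz2 were all at 0. In OHCs C1qa, C1qb and Cx3cr1 were at 0. The rho of the macrophage sum with Junb over cIHCs was 0.36, with Fos 0.31 and with Atf3 -0.06. Over OHCs it was 0.44 with Jun, 0.35 with Fosb, 0.31 with Jund, 0.25 with Fos, 0.20 with Egr1 and -0.09 with Junb. The 10 supporting cell markers came to 63.5 CPM over OHCs and 25.8 CPM over cIHCs (0 to 1141 and 0 to 967.7 CPM per cell), with 9 and 8 of 10 with reads, Slc1a3 at 0 in OHCs and Epyc and Fabp7 at 0 in cIHCs. The 5 glia markers summed to 14.3 and 8.19 CPM (0 to 174.1 and 0 to 118.9 CPM per cell), with 5 and 4 with reads and Pmp22 at 0 in cIHCs. The supporting cell sum had a rho of -0.02 and the glia sum of 0.03 with the mean of the 10 genes in cIHCs. In OHCs these were 0.06 and 0.05, and for single genes the supporting cell sum ran from -0.15 with Jun to 0.33 with Egr1. The part of all these markers in the differences was not tested.

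The genes most like the 10 over the 67 cIHCs were taken by Spearman's rho with the mean of log2(CPM + 1) of the 10, among 7279 genes with a mean of 10 CPM and reads in 50% of those cells. The first was Chp1, a calcineurin B-like calcium-binding protein gene (0.53). Others among the first 10 were Litaf (0.48), the cytokine signalling inhibitor gene Socs3 (0.47) and Skap2 (0.47). Plekhb1 (0.46), Flywch2 (0.45), the glyoxalase gene Glo1 (0.42) and Aplp2 (0.42) were also among them. The median over the 7279 genes was 0.03 and the 95th percentile 0.27. Ier2, a classic early gene, was at rank 51 with 0.38 in cIHCs and had 0.54 in OHCs. It was the highest of 12 other early genes with a value in cIHCs, whose median was 0.18, and Ccn1 among them was at -0.23. In OHCs it was the highest of 8, whose median was -0.04. Socs3 was also in the list of feedback regulators, with 4 reads over all OHCs and 86.2 CPM in cIHCs.

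Among 24 relatives of these genes in the AP-1, EGR and ATF/CREB families, 12 reached 10 CPM in 1 or both groups and had a median log2 ratio of 0.78. At least 1 log2 unit separated 4 upwards and 1 downwards in cIHCs, beside the 26.3% and 14.3% of all genes. The highest were Crem (3.67), a CREB-family gene whose short forms repress cAMP-driven transcription, and Mafg (1.99), a small MAF partner gene. Crem was at 23.5 CPM in OHCs, with reads in 13 of 32, and at 298.9 CPM in cIHCs, with reads in all 67. The lowest were Atf6 (-1.34), the sensor gene of endoplasmic reticulum stress, and Creb1 (-0.66), the kinase-regulated CRE-binding factor gene. The medians over cells of Creb1 ran the other way, at 16.9 CPM in OHCs and 33.7 CPM in cIHCs.

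Of 32 other early genes 24 reached 10 CPM, with a median log2 ratio of 1.73. In cIHCs 14 were at least 1 higher (58.3%, beside 26.3% of all genes) and 4 at least 1 lower (16.7%, near the 14.3% of all genes). Ccn1, a secreted matrix protein gene and known target of serum response factor and YAP, had no reads in any OHC. It was at 208.0 CPM in cIHCs with reads in 66 of 67, at least 14.03 higher on the log2 scale against 3 counts over the group. Bhlhe40, a clock-related repressor gene, had 2 reads in OHCs and 53.5 CPM in cIHCs (log2 ratio 12.7, 10.8 to 15.7). Plk2, a kinase gene induced by synaptic activity, was lower in cIHCs (97.1 against 1.39 CPM, -6.13), with reads in 20 of 32 OHCs and 4 of 67 cIHCs. Klf2 was also lower (17.7 against 1.72 CPM, -3.37), with 59.6% of OHC reads in 1 cell.

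Of 16 feedback regulators, which switch off the kinases, cytokine signals or mRNAs behind the early response, 9 reached 10 CPM with a median log2 ratio of -0.28. In cIHCs 3 were at least 1 higher (33.3%, beside 26.3% of all genes) and 4 at least 1 lower (44.4%, beside 14.3%). Socs3 stood highest (log2 ratio 12.3, counting interval 10.99 to 14.22), with reads in 47 of 67 cIHCs, and Zfp36l1, an mRNA decay factor gene, was second (5.35). Dusp8 and Dusp10, phosphatase genes of the JNK and p38 kinases, were lowest at -1.98 and -1.36. Dusp8 was at 156.5 CPM in OHCs and 39.8 CPM in cIHCs.

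Of 28 upstream kinases and factors 22 reached 10 CPM, with a median log2 ratio of 0.29 close to that of all genes. Only 2 were at least 1 higher and 2 at least 1 lower (9.09% each way, under the background shares). The serum response factor gene Srf was at 3.26 CPM in OHCs and 10.9 CPM in cIHCs (1.74) and its partner gene Elk3 at 5.30 and 28.4 CPM (2.42), with 96.8% of the OHC reads of Elk3 in 1 cell. Rps6ka5, which encodes the nuclear kinase MSK1, was at 31.1 and 7.14 CPM (-2.13), and Elk4 at 53.6 and 24.5 CPM (-1.13). Reads of Rps6ka5 were found in 10 of 32 OHCs and 27 of 67 cIHCs, with a median of 0 CPM in both groups. The median cell ran the other way for Elk4, at 1.35 CPM among OHCs and 14.9 CPM among cIHCs. Of 14 stress response genes 9 reached 10 CPM, with a median of 0.87. In cIHCs 4 were at least 1 higher (44.4%, beside 26.3% of all genes) and 0 at least 1 lower (beside 14.3%). Chac1, a glutathione-degrading target of ATF4, was at 0.0496 and 18.2 CPM (8.52), with reads in 18 of 67 cIHCs. The cell cycle inhibitor gene Cdkn1a was at 16.3 and 77.2 CPM (2.24), with reads in 9 of 32 OHCs and 32 of 67 cIHCs. Its median was 0 CPM in both groups. Hspa1b, a heat-inducible HSP70 gene, was at 26.4 and 22.97 CPM (-0.20), and Ppp1r15a, which encodes GADD34, at 231.5 and 278.9 CPM (0.27). These last 2 were named as the lowest ratios of the list.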

How the data were processed

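Full-length cDNA of 99 single cells was sequenced by the authors, 1 library per cell. The deposited table holds whole-number read counts per gene symbol, without molecular identifiers. The submitters' processing notes name HISAT2 2.2.1, StringTie 2.2.1, featureCounts 2.0.1 and the mm10 genome; the annotation, the strand setting and cell filters are not given in the sources used here. No cell was left out, and 0 columns belonged to no sample. No pair of columns was identical.

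Counts were summed over the cells of each group and given as CPM of the group's total, with exact 95% conditional binomial intervals; shares of cells have Clopper-Pearson 95% intervals. A sum of 0 was set to 3 counts. With 1 sample a group no test was run. The code was tested on simulated data. Gene coordinates and exon lengths came from GENCODE M21, which held 96.4% of the symbols. Python 3.11.15 with numpy 2.4.6, pandas 2.3.3 and scipy 1.17.1 was used, and TMM factors came from edgeR 4.0.16 in R 4.3.3.

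The members and lists were chosen with earlier results of these data known. Named were the 10 members, at most 4 genes of each other list (the 2 highest and 2 lowest log2 ratios among those at 10 CPM) and the 10 genes with the highest rho with the members' mean, of which some are not reported here. Dusp8 and Ier2 were also named after their values were seen.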

Additional observations from a re-analysis of the deposited data

How the results depend on the processing

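The log2 ratios of Atf3, Egr1, Junb, Fos and Jun kept their direction under every alternative that gave a value. Among cells with Y-linked reads Egr3 had 4 reads in OHCs and 0 in cIHCs, the other way from the sums. Fosb (6.29) and Jund (0.11) turned from lower to higher in cIHCs when cells with Xist reads alone were used. The median log2 ratio of the 10 genes, 2.65, was 2.74 with means of CPM per cell, 2.64 with thinned cells, 2.61 without mitochondrial genes in the totals and 2.58 without the most abundant genes. It was 2.46 with TMM, 2.45 with medians of ratios and 2.27 over the genes at 10 CPM. It was 1.75 without the highest cell of each gene and group, 1.69 in cells with Xist reads, 0.96 in cells with Y-linked reads (8 genes; it rests in part on Egr3 with its 0 set to 3 counts) and 4.62 with medians of CPM per cell (4 genes). The count of genes at least 1 higher, 7, was examined in the same ways after seeing the data. It was 2 with medians of CPM per cell, 4 in cells with Y-linked reads and 4 over the genes at 10 CPM. Smaller counts there rest in part on fewer genes with a value.

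The median rho in cIHCs, 0.18, was 0.14 with Pearson's r, 0.17 after regressing on genes with reads, 0.18 in cells with Xist reads and 0.16 without the cell with the highest mean. It was 0.11 over all pairs with reads in at least 3 cells. In OHCs it was 0.15, and 0.26, 0.14, 0.19 (cells with Y-linked reads), 0.076 and 0.13 in the same order. No value changed sign, and the cause of these moves was not tested.

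No paired analysis was possible because cell numbers pair nothing across the groups and no result rests on a test. The main limits are 1 sample a group, age and genotype that differ together, sex-linked reads that differ with the group, and few OHCs behind the sums of Egr1 and Fosb.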
